A study of Kluyveromyces lactis with 17 samples.

Results

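The genes described here are 4 genes of the yeast Kluyveromyces lactis that carry the names of S. cerevisiae phosphate response genes: PHO4 (KLLA0_D16115g), PHO92 (KLLA0_E02443g), SPL2 (KLLA0_D11066g) and PHO8 (KLLA0_E12827g). They were taken by these names and identifiers, with names from the RefSeq annotation of assembly ASM251v1, and no threshold on their values was set. The set was chosen with earlier results of these data known, so its counts beside those of all genes are a description. They are 4 of 5335 genes in the count table, and all 4 passed the filter on low counts, as did 5224 genes in all. Poly(A)-selected RNA was sequenced with paired-end reads from strain LRY2992 (called WT here, MATa SIR2) and from strain LRY2993 (sir2Δ, MATα). Both strains lack HML and HMR, the silent copies of the mating-type genes. Cultures grew overnight in minimal glucose medium with 400 µg/L nicotinic acid, a vitamin from which NAD+ is made, and then for 4 h with 400, 135, 45 or 15 µg/L. Each of the 8 groups of strain and level had 2 replicates, which the series text calls independent biological replicates. Each genotype is a single strain, and the strains differ in mating type as well as in SIR2, so the effects of these differences cannot be told apart.

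In S. cerevisiae, cells short of phosphate switch on the PHO genes through the transcription factor Pho4. When phosphate is plentiful, the cyclin and kinase pair Pho80-Pho85 phosphorylates Pho4 and it leaves the nucleus, and when phosphate is scarce, the inhibitor Pho81 stops that kinase. Pho92 is a YTH-domain protein that binds RNA carrying the m6A mark and has been linked to the decay of PHO4 mRNA, Spl2 turns down low-affinity phosphate uptake, and Pho8 is the alkaline phosphatase of the vacuole. Sir2 is an NAD+-dependent deacetylase that silences chromatin. These roles are known from S. cerevisiae, and no phosphate level or protein was measured in the K. lactis cultures.

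The libraries held 24663143 to 38246270 reads (median 33734530). SIR2 (KLLA0_F14663g) had 128 to 145 CPM, counts per fixed total of reads, in the WT replicates and 0.687 to 2.64 CPM in the sir2Δ replicates. The α mating-type gene HMLALPHA1 had means of 0.543 CPM in WT and 75.9 CPM in sir2Δ (n = 8 each), in accord with the labelled mating types. WT at 400 µg/L had 3 libraries, of which 1 and 1R share a number and were summed as 1 replicate. Library 1 stood apart. Its log2 CPM correlated across genes at 0.960 and 0.965 with the other libraries of its group, while the other 8 pairs of libraries of 1 group had 0.990 to 0.996. In library 1 the short genes read high and the long genes low, with a median log2 difference from 1R and 2 of 0.62 in the shortest and -0.40 in the longest of 5 length classes. For this reason changes of the 4 genes against WT at 400 µg/L are also given without library 1, and for the other genes named the calls that it ends or adds are given.

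SPL2, PHO92 and PHO4 all rose in WT as nicotinic acid fell, and PHO8 did not pass the test in any of the 18 comparisons made. From 400 to 15 µg/L in WT, the fitted level rose 8.56-fold for SPL2, 4.65-fold for PHO92 and 2.64-fold for PHO4. In the sir2Δ strain, SPL2 and PHO92 were already 10.1-fold and 10.2-fold above WT at 400 µg/L. PHO92 did not pass the test in any of the 5 comparisons of levels within sir2Δ. PHO4 was only 1.23-fold above WT in sir2Δ at 400 µg/L, and it rose within sir2Δ too. In bulk RNA of this kind, fewer cells that express a gene and less RNA per cell cannot be told apart.

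**Figure D1:**
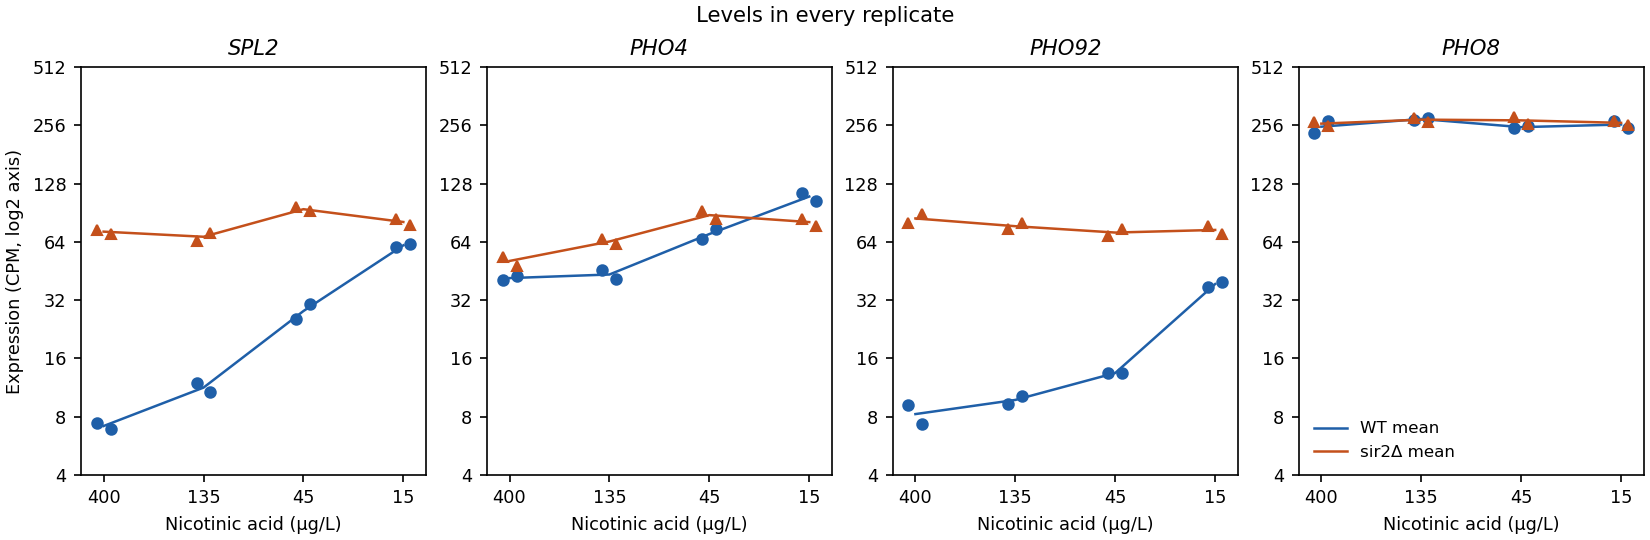
Level of each gene in CPM (log2 axis) in every replicate of WT (blue circles) and sir2Δ (orange triangles) at 400, 135, 45 and 15 µg/L nicotinic acid, with lines through the group means (2 replicates a group). SPL2 and PHO92 start near 7 and 8 CPM in WT and near 72 and 85 CPM in sir2Δ, PHO4 rises in both strains, and PHO8 stays between 234 and 282 CPM.

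The transcription factor gene PHO4 was measured in WT at 40.8 and 42.4 CPM with 400 µg/L, 45.9 and 41.0 with 135, 66.1 and 74.5 with 45, and 115 and 105 with 15 µg/L. The 400 and 135 µg/L replicates overlapped, and the replicates at each lower level lay above all of those before. In sir2Δ PHO4 had 53.8 and 48.3 CPM at 400 µg/L, 66.0 and 62.6 at 135, 92.3 and 83.9 at 45, and 84.3 and 77.7 at 15 µg/L. The sir2Δ replicates were above the WT replicates at 400, 135 and 45 µg/L and below them at 15 µg/L, where WT held the highest mean of the 8 groups. Of the 3 genes that moved, PHO4 was the only one with this crossing of the strains.

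In WT, the log2 fold change of PHO4 against 400 µg/L was 0.06 ± 0.10 (SE) at 135 µg/L, 0.76 ± 0.10 at 45 µg/L and 1.40 ± 0.10 at 15 µg/L. The last 2 passed the quasi-likelihood test of edgeR, adjusted by Benjamini-Hochberg over all genes tested (adjusted p = 5.2e-05 and 9.9e-09), and without library 1 the 3 values were 0.01, 0.71 and 1.35. In sir2Δ, PHO4 passed the same test at 45 µg/L (0.79 ± 0.10, adjusted p = 1.6e-04) and at 15 µg/L (0.67 ± 0.10, adjusted p = 1.4e-04), but not at 135 µg/L (0.33 ± 0.10, adjusted p = 0.0937). The rise to 45 µg/L was of nearly the same fitted size in both strains, and its difference between them was 0.03 ± 0.14 (0.08 without library 1). The rise to 15 µg/L was smaller in sir2Δ by 0.73 ± 0.13 on the log2 scale (edgeR quasi-likelihood interaction test, adjusted p = 0.00109), and by 0.68 without library 1.

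Between the strains, PHO4 was higher in sir2Δ by 0.30 ± 0.10 on the log2 scale at 400 µg/L, 0.57 ± 0.10 at 135 and 0.33 ± 0.09 at 45 µg/L (quasi-likelihood test of edgeR, adjusted p = 0.0204, 2.4e-04 and 0.0119). At 15 µg/L the sign turned, with a log2 value of -0.44 ± 0.09 (adjusted p = 0.00219). The strain difference at 400 µg/L was 0.24 without library 1 (adjusted p = 0.0337), and with upper-quartile scaling PHO4 had 0.19 (adjusted p = 0.0947) and no longer passed. Leaving out sir2Δ replicate 1 at 400 µg/L also ended that call for PHO4 (adjusted p = 0.180). The call at 45 µg/L was lost without sir2Δ replicate 5 (adjusted p = 0.0952) and without WT replicate 5 (adjusted p = 0.104) at that level.

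PHO92, whose S. cerevisiae namesake encodes an m6A reader that acts on PHO4 mRNA and in meiosis, had 9.15 and 7.34 CPM in WT with 400 µg/L and 9.31 and 10.2 with 135. It had 13.4 and 13.5 CPM with 45 µg/L, and 37.6 and 40.0 CPM with 15 µg/L. The replicates of no 2 WT groups overlapped, though the lowest value at 135 µg/L lay just above the highest at 400 µg/L. This holds with libraries 1 and 1R summed, and library 1 alone read 10.2 CPM, as high as the replicates at 135 µg/L. The libraries at 400 µg/L held 255 to 338 PHO92 reads each. In sir2Δ PHO92 had 79.8 and 89.5 CPM at 400 µg/L, 74.5 and 79.9 at 135, 68.6 and 74.5 at 45, and 77.2 and 70.4 at 15 µg/L. Every sir2Δ replicate was above every WT replicate. Neighbouring sir2Δ groups overlapped in the order of their means, and that order did not follow the dose.

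Of the WT rise of PHO92 on the log2 scale, 68.9% fell in the last step, from 45 to 15 µg/L. That step was 1.53 ± 0.11, against 0.46 ± 0.12 from 135 to 45 µg/L and 0.23 ± 0.12 from 400 to 135 µg/L (edgeR quasi-likelihood test, adjusted p = 8.4e-08, 0.0259 and 0.392). Without library 1 the first step of PHO92 was 0.30 and the change from 400 to 45 µg/L was 0.76, against 0.69 ± 0.12 with it. The whole change from 400 to 15 µg/L was 2.22 ± 0.11 (adjusted p = 2.7e-10), and 2.29 without library 1, in which PHO92 read 0.37 higher on the log2 scale than in libraries 1R and 2. The middle step of PHO92 was the fragile one, and its call was lost in 5 of 18 fits that left out libraries, with estimates over the 18 of 0.40 to 0.53. Within sir2Δ the changes of PHO92 from 400 µg/L were -0.13 ± 0.10, -0.24 ± 0.10 and -0.20 ± 0.10 at 135, 45 and 15 µg/L, and none passed the test (adjusted p = 0.509, 0.109 and 0.203).

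The excess of PHO92 in sir2Δ over WT shrank at each lower level, from 3.34 ± 0.12 on the log2 scale at 400 µg/L to 2.98 ± 0.11, 2.41 ± 0.11 and 0.93 ± 0.10 at 135, 45 and 15 µg/L. All 4 differences passed the edgeR quasi-likelihood test (adjusted p = 1.4e-12, 7.6e-12, 2.5e-10 and 6.8e-06), and PHO92 had 3.42 at 400 µg/L without library 1. The change from 400 µg/L differed between the strains by -0.93 ± 0.15 at 45 and -2.41 ± 0.15 at 15 µg/L (interaction test of edgeR, adjusted p = 0.00140 and 7.2e-09), and by -1.01 and -2.49 without library 1. At 135 µg/L this difference for PHO92, -0.36 ± 0.16, did not pass (adjusted p = 0.286), nor did the -0.43 without library 1 (adjusted p = 0.0870). WT with 15 µg/L reached 45.8% of the PHO92 level of sir2Δ with 400 µg/L.

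SPL2 encodes, in S. cerevisiae, a small regulator that lowers low-affinity phosphate uptake and is itself a target of Pho4. In WT it had 7.39 and 6.91 CPM with 400 µg/L, 11.9 and 10.7 with 135, 25.6 and 30.7 with 45, and 60.2 and 62.7 with 15 µg/L. No WT groups overlapped, and each step down in nicotinic acid gave a higher level, starting from 240 to 289 SPL2 reads per library at 400 µg/L. In sir2Δ SPL2 had 73.9 and 70.7 CPM at 400 µg/L, 64.6 and 71.5 at 135, 96.7 and 92.3 at 45, and 84.2 and 78.0 at 15 µg/L. All sir2Δ replicates lay above all WT replicates, but the lowest of them, at 135 µg/L, lay just above WT with 15 µg/L.

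SPL2 was the only 1 of the 4 genes that already passed the test at the first step in WT, from 400 to 135 µg/L, where its log2 fold change was 0.65 ± 0.11 (edgeR quasi-likelihood test, adjusted p = 0.00408). That call was lost without WT library 1R at 400 µg/L (adjusted p = 0.107) or WT replicate 3 at 135 µg/L (adjusted p = 0.0773), and without library 1 the SPL2 value was 0.79. The following steps of SPL2 were 1.31 ± 0.11 to 45 µg/L and 1.13 ± 0.10 to 15 µg/L (adjusted p = 4.3e-07 and 6.4e-07). From 400 to 45 µg/L SPL2 rose by 1.97 ± 0.11, and by 2.10 without library 1. Over the whole range SPL2 rose by 3.10 ± 0.11 (adjusted p = 2.4e-12), the 25th largest rise among the 5224 genes tested, and by 3.23 without library 1. The 3 steps held 21.1%, 42.4% and 36.4% of the rise of SPL2, while PHO4 had 4.47%, 49.6% and 45.9% and PHO92 had 10.2%, 20.9% and 68.9%.

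Within sir2Δ, SPL2 was higher at 45 than at 400 µg/L by 0.39 ± 0.10 on the log2 scale (edgeR quasi-likelihood test, adjusted p = 0.0131) and higher at 45 than at 135 µg/L by 0.47 ± 0.10 (adjusted p = 0.0291). At 15 µg/L the change of SPL2 from 400 µg/L was 0.17 ± 0.10 (adjusted p = 0.260). Of 18 fits that left out libraries, the first call of SPL2 was lost in 4 and the second in 9, while the estimates over all 18 ranged from 0.35 to 0.42 and from 0.40 to 0.55.

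The strain difference of SPL2 was 3.33 ± 0.11 on the log2 scale at 400 µg/L, 2.59 ± 0.11 at 135, 1.75 ± 0.10 at 45 and 0.40 ± 0.10 at 15 µg/L (quasi-likelihood test of edgeR, adjusted p = 8.9e-13, 1.8e-11, 1.5e-09 and 0.00487). At 400 µg/L it was 3.47 without library 1, in which SPL2 read 0.47 higher on the log2 scale than in 1R and 2. At 15 µg/L the SPL2 call was lost without sir2Δ replicate 7 (adjusted p = 0.0507). The change from 400 µg/L differed between the strains by -0.74 ± 0.15, -1.58 ± 0.14 and -2.93 ± 0.14 at 135, 45 and 15 µg/L (interaction test of edgeR, adjusted p = 0.0133, 1.8e-06 and 3.6e-10). Without library 1 these values for SPL2 were -0.88, -1.72 and -3.07. The call at 135 µg/L was lost without sir2Δ replicate 1 at 400 µg/L (adjusted p = 0.0679), sir2Δ replicate 3 (0.0717) or WT replicate 3 (0.0947) at 135 µg/L, or WT library 1R (0.238).

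PHO8, the gene of the vacuolar alkaline phosphatase, had 234 and 271 CPM in WT with 400 µg/L, 274 and 279 with 135, 248 and 254 with 45, and 269 and 249 with 15 µg/L. In sir2Δ it had 268 and 256, 281 and 268, 282 and 262, and 271 and 258 CPM at 400, 135, 45 and 15 µg/L. Each group overlapped its neighbour in the order of means. The lowest value belongs to the replicate that holds library 1, where PHO8 had 193 CPM against 272 CPM in both 1R and 2.

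PHO8 passed the edgeR quasi-likelihood test in 0 of the 18 comparisons, 0 had an unadjusted p under 0.05 (the lowest was 0.105), and DESeq2's Wald test made no call either. Its log2 differences ranged from -0.14 to 0.13. The 95% intervals of the 2-group comparisons lay between -0.31 and 0.31, each taken by itself and from 2 replicates a group. When libraries were left out, the PHO8 estimate for WT at 135 against 400 µg/L reached 0.26. From 400 to 15 µg/L in WT the value was 0.04 ± 0.08, and -0.07 without library 1. The coefficient of variation of PHO8 over the 16 replicates was 5.10%, and 41 of the 5224 genes (0.785%) had a lower one. The median gene had 13.7%. Without library 1, PHO8 had 4.08%, and 11 of 5222 genes (0.211%) were lower. The same measure was 33.7% for PHO4, 60.4% for SPL2 and 68.3% for PHO92.

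Set beside the whole table, in WT 3 of the 4 genes rose from 400 to 15 µg/L, where 15.8% of the genes tested rose, and the same 3 rose from 400 to 45 µg/L, where 7.20% did. From 400 to 135 µg/L 1 of 4 rose, against 2.22% of all genes. The 3 genes also rose in each of the later steps. Of all genes, 4.52% rose from 135 to 45 µg/L and 12.7% passed in either direction from 45 to 15 µg/L, 71.0% of these as higher. Within sir2Δ, SPL2 and PHO4 rose from 400 to 45 µg/L (10.7% of all genes) and from 135 to 45 µg/L (0.536%), and PHO4 alone rose from 400 to 15 µg/L (11.6%). From 400 to 135 µg/L in sir2Δ, 0 of 4 passed with edgeR (1.90% of all genes did), 1 of 4 had an unadjusted p under 0.05, and DESeq2 called that 1, PHO4.

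Of the strain differences, 3 of the 4 genes were higher in sir2Δ at 400, 135 and 45 µg/L, where 22.5%, 16.5% and 20.9% of all genes tested were. At 15 µg/L 3 of 4 passed, SPL2 and PHO92 as higher and PHO4 as lower, where 30.7% of all genes passed in either direction. In the interaction, the change from 400 µg/L was less in sir2Δ than in WT for 1 of 4 genes at 135 µg/L (1.67% of all genes), 2 at 45 µg/L (3.10%) and 3 at 15 µg/L (9.71%). Scaling by upper quartiles moved the median gene by -0.10 on the log2 scale at 400 µg/L between strains, and under it the 3 rises in WT at 15 µg/L and the strain differences of SPL2 and PHO92 all stayed past the threshold. The share of calls that were higher then changed over all genes from 60.4% to 50.0% for WT with 15 µg/L, and from 50.2% to 34.7% for sir2Δ against WT at 400 µg/L. It changed from 72.0% to 61.5% and from 67.5% to 56.0% in WT at 135 and 45 µg/L, and from 57.8% to 68.6% and from 65.5% to 79.8% in sir2Δ at 45 and 15 µg/L. For the interactions at 135, 45 and 15 µg/L it changed from 38.7% to 67.5%, 26.4% to 52.0% and 43.6% to 61.2%.

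**Figure D2:**
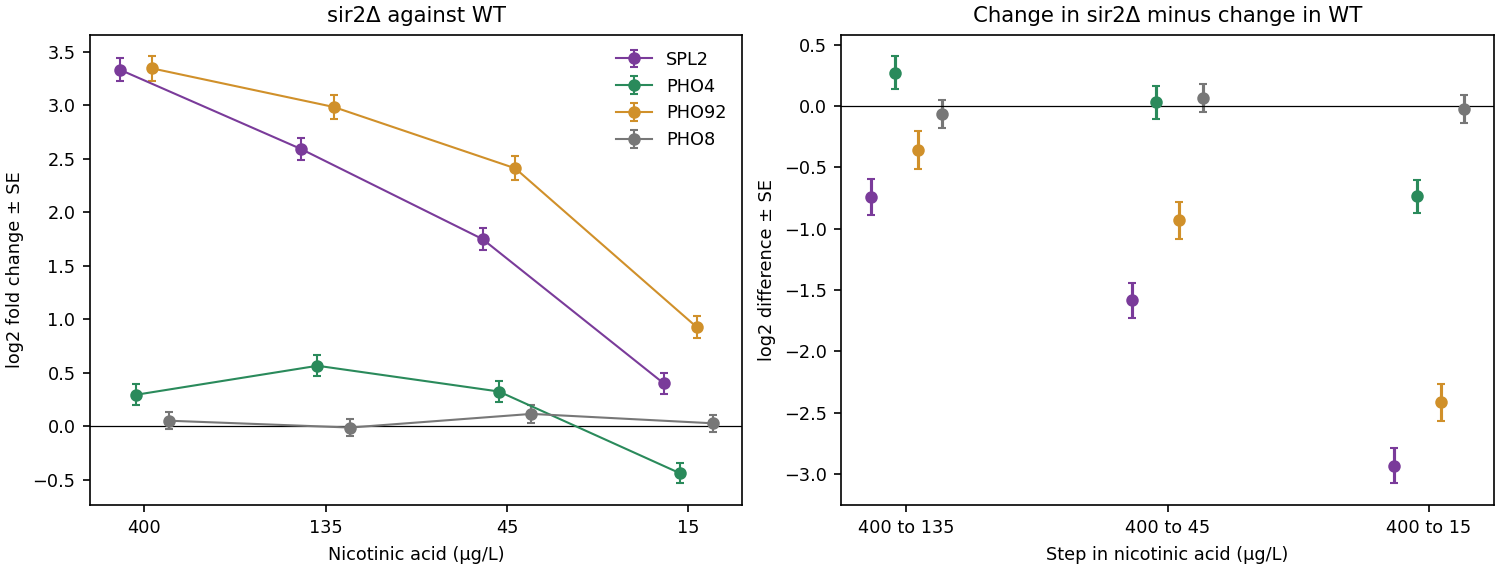
Left, the log2 fold change of sir2Δ against WT (± SE) of each gene at the 4 levels of nicotinic acid. Right, the difference between the strains in the change from 400 µg/L, sir2Δ less WT (± SE). The gap of SPL2 falls from 3.33 to 0.40 and that of PHO92 from 3.34 to 0.93, PHO4 turns from 0.30 to -0.44, and PHO8 stays near 0.

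WT with the least nicotinic acid was also set beside sir2Δ with the most. PHO92 was higher in sir2Δ with 400 µg/L than in WT with 15 µg/L by 1.13 ± 0.10 on the log2 scale, and PHO4 was lower by this comparison, at -1.11 ± 0.10 (edgeR quasi-likelihood test, adjusted p = 2.8e-07 and 1.4e-07). The calls of these 2 genes stand beside 23.7% of all genes higher and 26.1% lower. SPL2 differed by 0.24 ± 0.10 and did not pass (adjusted p = 0.0545), though it passed without library 1 (adjusted p = 0.0461). As shares of the sir2Δ level at 400 µg/L, WT with 15 µg/L had 85.0% for SPL2, 45.8% for PHO92, 215% for PHO4 and 99.0% for PHO8.

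Scaled by coding length, so that levels can be set between genes, PHO8 was the highest in both strains. At 400 µg/L in WT, the mean CPM per kilobase was 150 for PHO8, 20.1 for PHO4, 10.4 for PHO92 and 8.93 for SPL2. In sir2Δ at 400 µg/L the order changed, with 155 for PHO8, 106 for PHO92, 90.3 for SPL2 and 24.6 for PHO4. PHO4 was thus above SPL2 and PHO92 per length in WT at 400 µg/L and below both in sir2Δ.

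Other genes of the phosphate system came from a list of 43 S. cerevisiae names, of which 32 were matched by symbol and tested. The names not matched, among them PHO84 and PHO5, were not analysed here. From 400 to 15 µg/L in WT, 12 of the 32 rose and 3 fell, with a median log2 change of 0.05 against -0.01 over all genes, of which 15.8% rose and 10.3% fell. Leaving aside SPL2, PHO4, PHO92 and PHO8, 9 of 28 rose and 3 fell, with a median of -0.03. SPL2, PHO92 and PHO4 were the members with the largest rises of the list.

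Among the signalling genes, 5 of 9 rose in WT from 400 to 15 µg/L and 0 fell, beside the 15.8% and 10.3% of all genes. Besides PHO4, SPL2 and PHO92 these were PHO81, the inhibitor of the Pho80-Pho85 kinase (0.53 ± 0.11, edgeR adjusted p = 0.00184), and PHO80, its cyclin (0.37 ± 0.09, adjusted p = 0.00523). The kinase gene PHO85 had -0.04 ± 0.11 and did not pass. Between strains at 400 µg/L, PHO85 was higher in sir2Δ (0.34 ± 0.11, adjusted p = 0.0207), the importin gene PSE1 was lower (-0.40 ± 0.10, adjusted p = 0.00385), and PHO81 (-0.23 ± 0.11) and PHO80 did not pass. PHO81 was called as lower there without library 1 and with upper-quartile scaling, and under that scaling PHO85 lost its call. PHO81 was the 1 signalling gene besides PHO4 that rose within sir2Δ at 15 µg/L (0.34 ± 0.11, adjusted p = 0.0459).

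Of 5 uptake and export genes, 2 rose and 2 fell in WT from 400 to 15 µg/L (15.8% and 10.3% of all genes). PHO89, a sodium-coupled phosphate importer, went from 58.7 to 97.5 CPM (0.73 ± 0.08, edgeR adjusted p = 3.8e-06), and SYG1, of the phosphate exporter family, from 295 to 548 CPM (0.89 ± 0.10, adjusted p = 4.2e-06). PHO91, a vacuolar phosphate transporter, and PHO86, an endoplasmic reticulum protein that serves transporter export, fell by 0.35 ± 0.10 and by 0.31 ± 0.09 (adjusted p = 0.0183 and 0.0136). PHO89 was not called between strains at 400 µg/L (-0.17 ± 0.08), though it was called as lower without library 1 and with upper-quartile scaling. There SYG1 (0.56 ± 0.10) and PHO91 (0.38 ± 0.10) were higher in sir2Δ. PHO86 (-0.32 ± 0.09) and the low-affinity transporter gene PHO90 (-0.51 ± 0.13) were lower in sir2Δ (edgeR adjusted p of 2.6e-04 to 0.00664 for these 4).

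Of the 8 genes that the list places under polyphosphate, PHM7 among them, 4 rose in WT from 400 to 15 µg/L and 0 fell. This is again beside 15.8% and 10.3% of all genes. VTC4, the catalytic subunit of the polyphosphate polymerase of the vacuole, had 0.44 ± 0.10, its partners VTC1 and VTC2 had 0.68 ± 0.11 and 0.45 ± 0.08, and PHM7 had 0.46 ± 0.11 (edgeR adjusted p = 0.00325, 2.3e-04, 5.2e-04 and 0.00409). VTC1, VTC2 and VTC4 were also higher in sir2Δ at 400 µg/L (0.83 ± 0.11, 0.35 ± 0.08 and 0.62 ± 0.10), and VTC5 was lower (-0.44 ± 0.09). Unlike SPL2 and PHO92, VTC2 (0.53 ± 0.08) and VTC4 (0.39 ± 0.10) rose within sir2Δ from 400 to 15 µg/L as well, with VTC5 (0.35 ± 0.09). Their changes did not pass the interaction test (adjusted p = 0.705, 0.858 and 0.0661), except that VTC5 passed it without library 1 and with upper-quartile scaling. The endopolyphosphatase gene PPN2 fell by 0.46 ± 0.13 in sir2Δ at 15 µg/L.

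The 7 inositol polyphosphate genes held 1 rise and 1 fall in WT at 15 µg/L (15.8% and 10.3% of all genes), those of the kinase genes IPK1 (0.41 ± 0.10) and VIP1 (-0.33 ± 0.11). IPK1 was also higher in sir2Δ at 400 µg/L (0.39 ± 0.10), and the phospholipase C gene PLC1 was lower (-0.36 ± 0.10). Of the 3 phosphatase and scavenging genes tested, PHO8, PHO13 and GDE1, 0 passed the edgeR test in WT at 15 µg/L, and PHO13 was higher in sir2Δ at 400 µg/L (0.38 ± 0.08).

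Over the list, 11 of 32 genes were higher and 5 lower in sir2Δ at 400 µg/L, beside 22.5% and 22.3% of all genes. Within sir2Δ, 5 rose and 1 fell from 400 to 15 µg/L (11.6% and 6.09% of all genes), and in the interaction at 15 µg/L 1 was higher and 7 lower (7.50% and 9.71%). Without library 1, every call of the list held in WT at 15 µg/L, between strains at 400 µg/L and within sir2Δ at 15 µg/L, no called gene changed sign and none of the 32 values moved by more than 0.24 on the log2 scale. PHM7 then lost its interaction call. Calls were also gained without it, and the counts became 12 higher and 7 lower in WT at 15 µg/L (PHO90, MSN5, PSE1 and PLC1 added) and 12 and 9 between strains at 400 µg/L (PHO89, PHO81, KCS1, DDP1 and PPN1 added). They became 7 and 2 within sir2Δ at 15 µg/L (PLC1, DDP1 and VTC1 added) and 4 and 8 in the interaction (PHO90, VIP1, DDP1, VTC1 and VTC5 added). With upper-quartile scaling the list had 9 higher and 10 lower in sir2Δ at 400 µg/L in place of 11 and 5, and 3 higher and 5 lower in the interaction in place of 1 and 7.

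**Figure D3:**
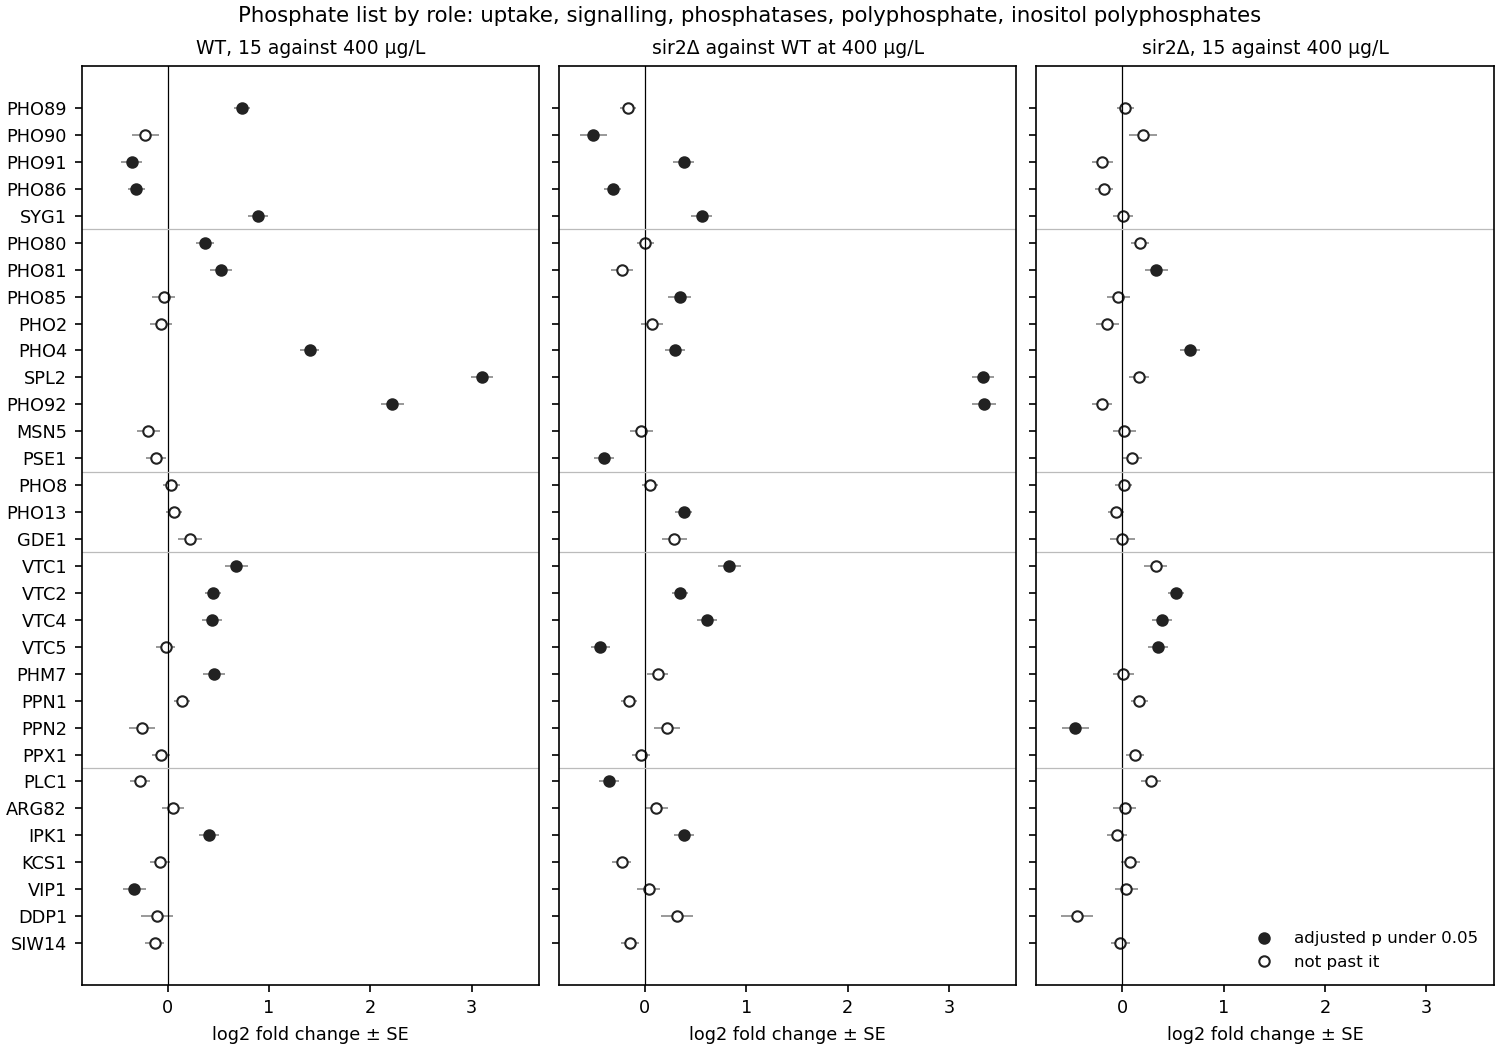
Log2 fold change (± SE) of the 32 genes of the phosphate list, in rows grouped by role, for WT at 15 against 400 µg/L, sir2Δ against WT at 400 µg/L and sir2Δ at 15 against 400 µg/L. Filled points have an adjusted p under 0.05 and open points do not. SPL2 and PHO92 stand at 3.10 and 2.22, then 3.33 and 3.34, and the other genes lie closer to 0 except PHO4 at 1.40 on the left.

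PHO92 was also set beside a list of 10 names of the S. cerevisiae m6A writer complex and of entry into meiosis, of which 8 were tested. In WT from 400 to 15 µg/L 4 of them rose and 1 fell, with a median log2 change of 0.35, where 15.8% of all genes rose, 10.3% fell and the median was -0.01. IME1, the master activator of meiosis, rose from 14.4 to 43.1 CPM (1.59 ± 0.11, edgeR adjusted p = 1.4e-08). Members of the writer complex rose as well, MUM2 by 1.06 ± 0.11, VIR1 by 0.59 ± 0.12 and KAR4 by 0.52 ± 0.12 (adjusted p = 2.8e-06, 0.00166 and 0.00321). The gene of the methyltransferase itself, IME4, had 12.0 and 13.6 CPM and did not pass. UME6, which represses meiotic genes, fell by 0.45 ± 0.10.

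At 400 µg/L 6 of the 8 genes had a higher level in sir2Δ than in WT and 0 a lower one, with a median of 0.80, where 22.5% of all genes were higher and 22.3% lower and the median was -0.01. MUM2 (1.73 ± 0.11), IME1 (1.60 ± 0.11), KAR4 (0.92 ± 0.12), the kinase gene IME2 (0.89 ± 0.13), VIR1 (0.71 ± 0.12) and the transcription factor gene NDT80 (0.68 ± 0.15) made up the 6 (edgeR adjusted p of 4.1e-09 to 0.00140). Within sir2Δ, 0 rose from 400 to 15 µg/L and NDT80 fell by 0.56 ± 0.15 (11.6% of all genes rose and 6.09% fell). In the interaction IME1 (-1.61 ± 0.16), MUM2 (-1.02 ± 0.16), KAR4 (-0.77 ± 0.16) and VIR1 (-0.71 ± 0.17) were lower, as were PHO92 and SPL2, and 0 were higher, beside 9.71% and 7.50% of all genes. IME1 reached about the same level in WT with 15 µg/L, 43.1 CPM, as in sir2Δ with 400 µg/L, 43.5 CPM, while PHO92 had less than its sir2Δ level. Without library 1 no call of this list was lost, and IME4 was then called as lower in sir2Δ at 400 µg/L.

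**Figure D4:**
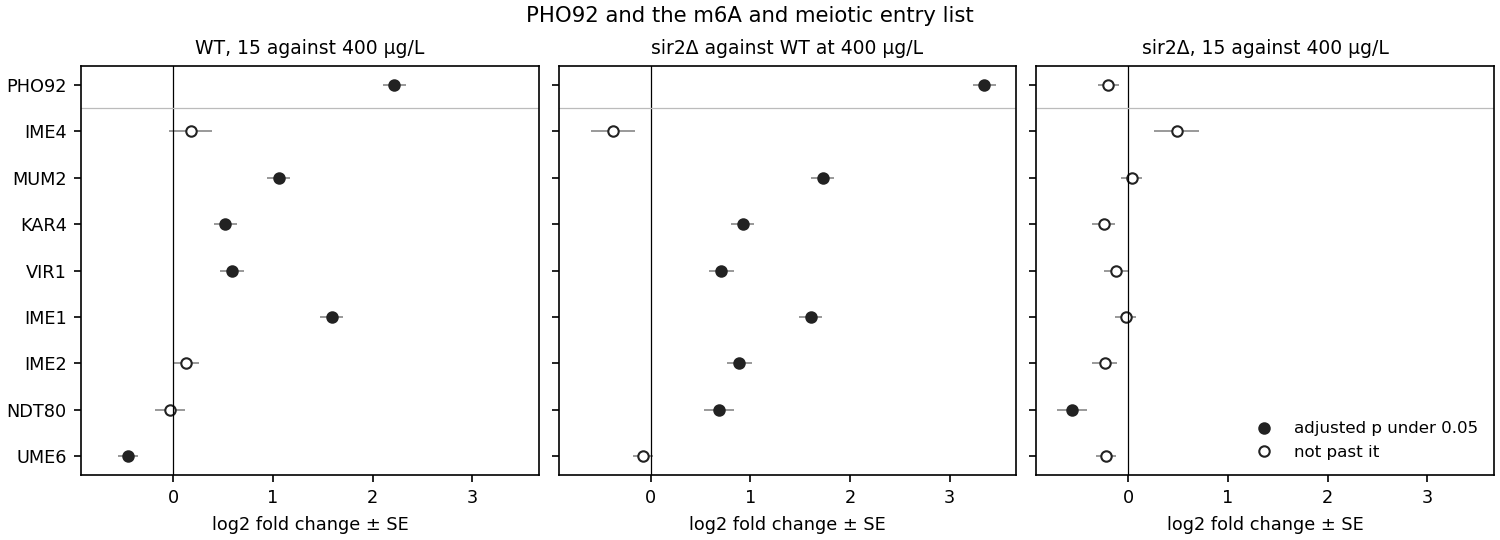
Log2 fold change (± SE) of PHO92 and of the 8 tested genes of the m6A and meiotic entry list, for WT at 15 against 400 µg/L, sir2Δ against WT at 400 µg/L and sir2Δ at 15 against 400 µg/L. Filled points have an adjusted p under 0.05. IME1 and MUM2 lie at 1.59 and 1.06 on the left and at 1.60 and 1.73 in the middle, below PHO92 at 2.22 and 3.34, and near 0 on the right.

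On the chromosomes, the 4 genes lie in the interior. SPL2 is 405 genes and PHO4 173 genes from the nearest end of chromosome D, which carries 885 genes, and PHO92 is 103 and PHO8 546 genes from the nearest end of chromosome E, with 1117. No neighbouring gene model overlaps any of the 4. Of the 16 nearest genes, 2 on each side of each, 4 rose in WT from 400 to 15 µg/L and 0 fell, beside 15.8% and 10.3% of all genes. In sir2Δ against WT at 400 µg/L, 5 were higher and 4 lower, beside 22.5% and 22.3%.

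Beside SPL2, KLLA0_D11088g rose in WT by 1.12 ± 0.15 on the log2 scale and was higher in sir2Δ at 400 µg/L by 0.77 ± 0.15 (edgeR adjusted p = 2.9e-05 and 5.4e-04), and ARO9 had 0.43 ± 0.09 and 0.46 ± 0.09. KLLA0_D11022g had 0.28 ± 0.08 and 0.45 ± 0.08, and KLLA0_D11044g was lower in sir2Δ, at -0.36 ± 0.12. Around PHO92, CAT5 was higher in sir2Δ by 0.67 ± 0.10 (adjusted p = 6.6e-05), and FRQ1, KLLA0_E02465g and BCS1 passed in neither comparison. Around PHO4, FAF1 (-0.91 ± 0.18) and HIS6 (-0.36 ± 0.12) were lower in sir2Δ at 400 µg/L, and QCR6 and RPL29 passed in neither. The changes at SPL2, PHO92 and PHO4 in WT were larger than those of any of their 12 neighbours.

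Next to PHO8 lay the reverse case. PCL5, which in S. cerevisiae encodes another cyclin of the Pho85 kinase, stands 2 genes from PHO8 and rose in WT by 1.97 ± 0.12 from 400 to 15 µg/L (edgeR adjusted p = 3.6e-09). It was 0.92 ± 0.12 higher in sir2Δ at 400 µg/L, rose by 0.56 ± 0.12 within sir2Δ, and had an interaction of -1.41 ± 0.17. ARL3 and BRR6 passed in neither of the first 2 comparisons, and MNN9 was lower in sir2Δ by this test, at -0.26 ± 0.08. Without library 1 the 16 neighbours lost no call in WT at 15 µg/L or between strains at 400 µg/L, FRQ1 gained one in the first and ARL3 in the second, and FAF1 lost 1 of their 3 interaction calls.

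**Figure D5:**
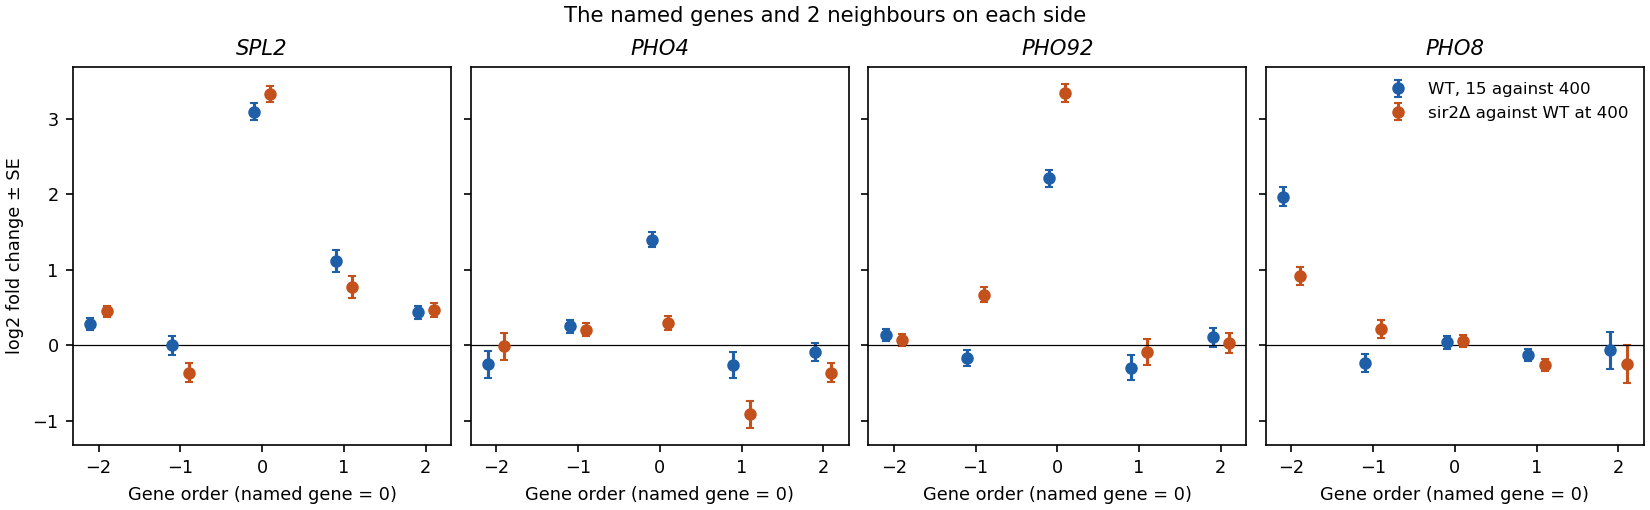
Log2 fold change (± SE) of each of the 4 genes (position 0) and of the 2 nearest genes on each side in gene order, for WT at 15 against 400 µg/L (blue) and sir2Δ against WT at 400 µg/L (orange). SPL2, PHO4 and PHO92 stand above their neighbours in blue, and PCL5 at position -2 of PHO8 stands at 1.97 while PHO8 is at 0.04.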

How the data were processed

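The deposited table holds whole-number read counts per gene, made by the authors. Per the submitters' processing notes, the tools included cutadapt, Bowtie2, SAMtools and featureCounts. Tool versions, genome build, strand setting and the treatment of multiply matching reads are not stated there or in the labels, so reads of an antisense or near-identical gene cannot be told apart. A deposited normalized table was not used.

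All 17 libraries entered, with 1 and 1R (WT, 400 µg/L) summed, giving 16 replicates. The labels do not say how 1R was made. The titles of 1, of 1R and of sir2Δ replicate 8 at 15 µg/L carry the mark RESUB, which the labels do not explain. Genes were kept by filterByExpr (minimum count 10), which left 5224 and removed 111. Counts were tested with edgeR 4.0.16 (R 4.3.3) by robust quasi-likelihood, TMM scaling and 1 mean per group over the 8 groups, with 8 residual degrees of freedom and a common biological coefficient of variation of 8.57%. Adjusted p-values are Benjamini-Hochberg over all genes tested, in each of 18 comparisons, called under 0.05. CPM uses the TMM factors, and fold changes use a prior count of 0.125. SE was taken from the estimate and its F statistic. The procedure was tested on simulated data.

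The 4 genes and both lists were chosen with earlier results of these data known. Named are all list members called in WT at 15 against 400 µg/L or between strains at 400 µg/L, and the 2 nearest genes on each side. Gene names and coding lengths come from RefSeq ASM251v1. No sequence or coordinate is given.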

Additional observations from a re-analysis of the deposited data

Results flagged for a closer look

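The change with nicotinic acid differed between the strains for 3 of the 4 genes, by edgeR's interaction test over all genes. Of all genes tested, 1.67%, 3.10% and 9.71% were called as lower in this test at 135, 45 and 15 µg/L. The 4 genes were chosen with earlier results of these data known, so these counts are a description. In SPL2 the difference of the changes from 400 µg/L, sir2Δ less WT, was -0.74 at 135, -1.58 at 45 and -2.93 at 15 µg/L on the log2 scale. In PHO92 it was -0.93 at 45 and -2.41 at 15 µg/L. In PHO4 it was -0.73 at 15 µg/L, where both strains rose but WT by more. The comparisons at 135, 45 and 15 µg/L share the 400 µg/L replicates of both strains, so they are not independent of each other.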

How the results depend on the processing

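Under 26 other settings, 1766 of 1828 values for the 4 genes kept their side of the threshold, 53 lost a call and 9 gained one. No value with a call in either fit changed sign. Values with no call in either fit could change sign and are among the 1766. PHO8 in WT at 15 against 400 µg/L, for example, had 0.04, and -0.07 without library 1. The SPL2 and PHO92 strain differences at 400 µg/L and the 3 interaction calls at 15 µg/L held in all settings. The rises of SPL2, PHO4 and PHO92 in WT at 15 µg/L held in every setting that fitted them. The replicate block described below did not. The cause of the changes below was not tested.

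With libraries 1 and 1R as separate columns, the lost calls were SPL2 in WT at 135 against 400 µg/L (0.62), PHO92 in WT at 45 against 135 (0.46), SPL2 in sir2Δ at 45 against 400 (0.39) and against 135 (0.47), PHO4 in sir2Δ at 45 against 135 (0.45), SPL2 between strains at 15 (0.40) and the SPL2 interaction at 135 (-0.71). With only the groups compared in the fit, those lost were SPL2 in WT at 135 (0.66), PHO92 in WT at 45 against 400 (0.69) and 135 (0.45), SPL2 (0.46) and PHO4 (0.44) in sir2Δ at 45 against 135, and PHO4 between strains at 400 (0.29) and 45 (0.31). Upper-quartile scaling ended the PHO4 strain call at 400 (0.19), as did leaving out 1 and 1R together (0.27). PHO4 in sir2Δ at 135 against 400 passed with upper-quartile scaling (0.37), DESeq2 (0.34) and only the groups compared (0.32). SPL2 in sir2Δ at 400 against WT at 15 passed with DESeq2's size factors (0.24), its Wald test (0.24) and only the groups compared (0.24).

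Leaving out libraries in turn gave, for SPL2, 0.50 to 0.79 in WT at 135 µg/L, 0.35 to 0.42 and 0.40 to 0.55 in sir2Δ at 45 against 400 and 135, 0.34 to 0.46 between strains at 15, -0.88 to -0.59 for the interaction at 135, and 0.20 to 0.27 for sir2Δ at 400 against WT at 15. It gave 0.40 to 0.53 for PHO92 in WT at 45 against 135, and for PHO4 0.38 to 0.52 in sir2Δ at 45 against 135, 0.21 to 0.37 between strains at 400 and 0.24 to 0.41 at 45.

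The phosphate list's 6 calls in sir2Δ at 15 against 400 became 3 with 1 and 1R separate, 12 with only the groups compared and 2 to 9 leaving out libraries. Its 8 interaction calls at 15 became 5 with 1 and 1R separate and 5 to 12 leaving out libraries. Over all genes, calls ranged from 841 to 1584 around 1362 in WT at 15, from 32 to 293 around 161 in WT at 135, from 153 to 763 around 557 in WT at 45, from 444 to 1527 around 922 in sir2Δ at 15, from 275 to 1251 around 970 in sir2Δ at 45, and from 1 to 1010 around 99 in sir2Δ at 135. For the steps they ranged from 110 to 523 around 338 and from 337 to 875 around 662 in WT, and from 6 to 189 around 63 in sir2Δ at 45 against 135. Between strains at 135, 45 and 15 they ranged from 1080 to 2879 around 1661, 1345 to 2341 around 2069 and 976 to 1890 around 1605, and for the interactions from 39 to 317 around 142, 97 to 702 around 220 and 570 to 1198 around 899.

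The deviations of same-numbered replicates of the strains correlated across genes at -0.133, -0.0954, 0.324 and 0.194 at 400, 135, 45 and 15 µg/L. The sign differed between levels, so these values do not settle whether same-numbered replicates pair. A fit with a replicate block, a term for the shared number, covered only the strain differences at each level and the interactions. It could not estimate the other comparisons, which set different levels side by side, since replicate numbers are not shared between levels. In the comparisons that it covered, no call of the 4 genes changed, with 3.34 for SPL2 between strains at 400. The block moved the all-gene calls from 220 to 427 in the interaction at 45 and from 142 to 229 at 135.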

Other observations

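The 5 genes whose log2 CPM over the 16 replicates followed each of the 4 genes most closely are given by Pearson's r as a description, without a test, since the replicates fall into 2 strains and that split alone gives high values. For SPL2 these were KLLA0_F00242g (0.994), KLLA0_C11517g (0.993), KLLA0_E00221g (0.993), KLLA0_F22319g (0.992) and AMA1 (0.991). AMA1, which in S. cerevisiae encodes a meiosis-specific activator of the anaphase-promoting complex, had log2 fold changes of 3.17 in WT from 400 to 15 µg/L, 3.17 between strains at 400 µg/L and 0.09 within sir2Δ. For PHO92 they were KLLA0_F05379g (0.993), KLLA0_E20637g (0.992), CTS2 (0.992), KLLA0_D18964g (0.992) and KLLA0_B07711g (0.992). CTS2, a chitinase gene, had 1.81, 2.56 and 0.15 in the same comparisons.

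PHO4 was followed by other genes than SPL2 and PHO92 were, and less closely. They were PAN6 (0.940), CMR1 (0.931), HIS4 (0.923), LYS2 (0.916) and PKP2 (0.915). PAN6 encodes a pantothenate synthesis enzyme, HIS4 one of histidine synthesis and LYS2 one of lysine synthesis in S. cerevisiae. HIS4 had log2 fold changes of 0.79 in WT, 0.17 between strains at 400 µg/L and 0.51 within sir2Δ, against 1.40, 0.30 and 0.67 for PHO4. The genes nearest to PHO8 were PTK2 (0.898), VID28 (0.871), MHP1 (0.837), HAP1 (0.829) and KLLA0_E07811g (0.823), all nearly flat in level. PHO8 itself had a coefficient of variation of only 5.10%, with its lowest value in the replicate that holds library 1. These correlations are not given without library 1.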
